A study of Mus musculus with 6 samples.

Results

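The genes described here are 10 core components and direct targets of the circadian clock, Arntl, Clock, Per1, Per2, Per3, Cry1, Cry2, Nr1d1, Nr1d2 and Dbp, chosen by symbol among the 32285 genes of the count tables. All 10 were present. Their levels were followed in 6 libraries of single-nucleus RNA from the mouse brain, both to see whether the libraries look as if they had been collected at different times of day and to compare the 2 treatments. The clock time of collection is not given in the sources used here.

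Each library came from 1 brain of a C57BL/6 S-56 mouse that received 5 µl into the right lateral ventricle at postnatal day 7 and was collected at postnatal day 15. In 3 mice the injection held 18:1 lysophosphatidic acid (LPA), a signalling lipid of blood that is used to model hydrocephalus after haemorrhage, and in 3 mice it held the vehicle, 0.01% BSA. All mice had isoflurane anaesthesia and flunixin, and the concentration of LPA given to these 3 brains is not stated in the sources used here. Nuclei of the whole brain without olfactory bulbs and cerebellum were sorted for the absence of the neuronal protein NeuN. Frozen tissue was used, so the values are nuclear RNA, and the library is the replicate. The labels do not say whether litters, injection days or collection days were shared, so the p-values measure the spread between these 6 brains.

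In the clock of mammals, the proteins CLOCK and ARNTL (also called BMAL1) bind together to E-box motifs and switch on the Per and Cry genes, whose proteins return to the nucleus and block them. The same pair drives Nr1d1 and Nr1d2 (REV-ERB alpha and beta), nuclear receptors that repress Arntl, and Dbp, a transcription factor that acts on D-box motifs. In most mouse tissues Dbp and Nr1d1 peak in the phase of the day in which Arntl is low, so their ratio moves strongly with the hour of collection in adults. The clocks of young pups are still maturing. Per1 is also an acute target of glucocorticoid hormones and of cAMP signalling.

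The motifs through which the loop acts were looked for in RefSeq promoter windows of GRCm38.p6 that run from 250 bases before to 50 bases after a start site. Of the 10 genes, 9 had at least 1 window, 13 windows in all, and Per2 had none. The stretches below are shown because they hold the letters through which the clock proteins are known to act on each other's genes. Capitals mark the motif, an E-box (CACGTG) in Per1 and Cry1, a D-box (TTATGTAA) in Per3 and the core of a ROR and REV-ERB element (TAGGTCA) in Arntl, and each is written 5′ to 3′ on the strand of the gene.
Per1, chr11:69098699-69098948, plus strand: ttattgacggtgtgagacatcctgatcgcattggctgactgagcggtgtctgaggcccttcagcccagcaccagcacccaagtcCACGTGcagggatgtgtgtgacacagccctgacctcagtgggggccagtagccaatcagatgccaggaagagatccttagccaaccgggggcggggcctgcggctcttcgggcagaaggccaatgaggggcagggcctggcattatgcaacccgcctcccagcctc
Cry1, chr10:85185097-85185126, minus strand: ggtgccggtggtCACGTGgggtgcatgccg
Per3, chr4:151044808-151044878, minus strand: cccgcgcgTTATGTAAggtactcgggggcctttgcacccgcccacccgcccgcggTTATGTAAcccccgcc
Arntl, chr7:113207531-113207557, plus strand: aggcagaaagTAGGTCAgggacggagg

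The Per1 E-box lies 166 bases before a start site of the gene and the Cry1 E-box 60 bases before. The Per3 stretch holds the D-box at 205 and at 158 bases before the start, and the Arntl element lies 31 bases after it. On either strand, CACGTG was found in 2 of the 13 windows against 7.15% of all 32851 promoter windows, TTATGTAA in 1 against 0.938%, and TAGGTCA in 1 against 2.61%. Neither the glucocorticoid element (GNACA and TGTNC with 3 bases between, 0.475% of all windows) nor the full cAMP element TGACGTCA (1.79%) was found in the 13 windows, which says only that these letters are not in these windows. A match describes the sequence and was not tested as a site.

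Gene spans are GENCODE M21 coordinates on GRCm38, matched to the deposited counts by gene identifier. Per1 (ENSMUSG00000020893) spans chr11:69095217-69109960 on the plus strand and Dbp (ENSMUSG00000059824) chr7:45705088-45710203 on the plus strand. Arntl (ENSMUSG00000055116) spans chr7:113207465-113314126 on the plus strand and Clock (ENSMUSG00000029238) chr5:76209868-76304792 on the minus strand. Reads in introns were counted too, so a long gene gathers more unique molecular identifiers (UMIs, counted molecules) than a short one, and levels were compared between libraries and cell types but not between genes.

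After filters, 57443 nuclei were kept, 7579 to 11745 in a library, with 48852970 to 65688644 UMIs in the deposited tables and a median of 3732 to 4578 UMIs in a kept nucleus. Clustering gave 40 clusters, of which 30 were named from marker lists as 10 cell types, and 10 clusters with 8465 nuclei stayed unnamed. Although the gate was set against NeuN, 14274 nuclei carried neuronal markers. Library pairs shared 268 to 303 barcodes, and mitochondrial RNA made up 0.0251% to 0.0525% of the kept UMIs with LPA and 0.0760% to 0.102% with vehicle, ranges that did not overlap. The part of this difference in the results below was not tested beyond refitting without the mitochondrial filter.

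Across whole libraries the clock genes were close to level. Values are UMIs per 1000000 UMIs (CPM) of all kept nuclei, with library totals scaled by TMM factors, and fewer nuclei of a type or less RNA in each cannot be told apart in such sums. Arntl, the activator whose level falls and rises with the day in adult tissues, stood at 70.7, 73.5 and 71.6 CPM in LPA libraries 1 to 3 and at 62.5, 71.8 and 70.0 CPM in vehicle libraries 1 to 3. Clock, its partner, stood at 133, 135 and 138 CPM with LPA and at 129, 138 and 136 CPM with vehicle. For both activators the lowest of the 6 libraries was vehicle 1 and the other 5 lay close together.

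The period genes encode the limbs of repression. Per1 stood at 34.3, 42.8 and 37.9 CPM with LPA and at 48.9, 43.1 and 42.4 CPM with vehicle. It had the widest range of the 10 genes, 1.42-fold from LPA 1 to vehicle 1, and the groups overlapped only through LPA 2, which lay just above vehicle 3. Per2 stood at 36.2, 38.0 and 33.4 CPM with LPA and at 35.4, 32.4 and 33.1 CPM with vehicle. Per3, a period protein that is dispensable for the loop, had few UMIs and stood at 2.73, 3.07 and 3.14 CPM with LPA and at 2.96, 2.41 and 2.72 CPM with vehicle. Groups overlapped for Per2 and Per3.

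The cryptochromes are the stronger repressors of CLOCK and ARNTL. Cry1 stood at 18.5, 20.4 and 19.5 CPM with LPA and at 17.1, 17.9 and 18.4 CPM with vehicle. Cry2 stood at 70.5, 68.0 and 68.6 CPM with LPA and at 64.2, 62.3 and 63.8 CPM with vehicle. For both, every LPA library lay above every vehicle library, and these were the only 2 of the 10 genes without overlap, where 13.4% of all 20207 genes tested lay higher with LPA without overlap.

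Among the REV-ERB receptors, Nr1d1 stood at 11.7, 11.7 and 12.9 CPM with LPA and at 12.9, 12.1 and 10.9 CPM with vehicle. Nr1d2 stood at 50.7, 48.8 and 50.2 CPM with LPA and at 47.1, 51.4 and 51.3 CPM with vehicle. Dbp, an output gene with a steep daily rhythm in adult mouse tissues, stood at 20.3, 16.8 and 19.1 CPM with LPA and at 19.6, 19.3 and 18.2 CPM with vehicle. Groups overlapped for all 3 genes, and their highest and lowest libraries differed from gene to gene.

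**Figure D1:**
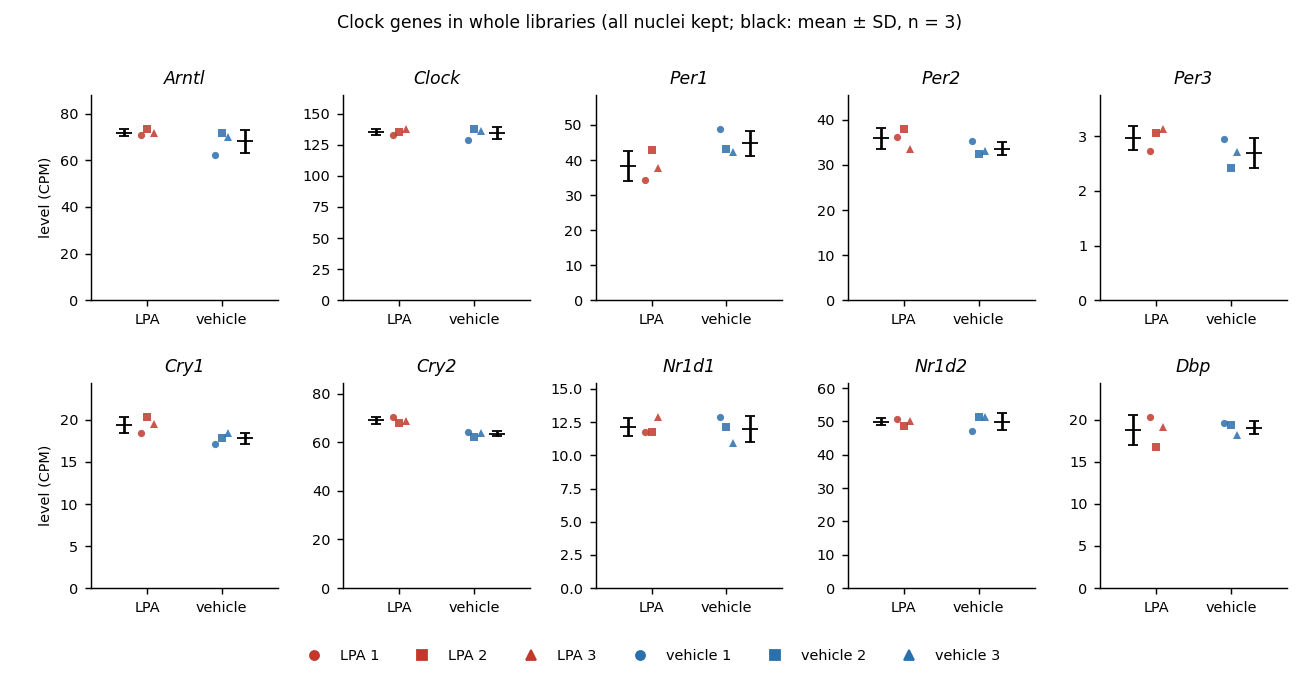
Level of each of the 10 clock genes (CPM, vertical axis from 0) in the 3 LPA and 3 vehicle libraries, with all kept nuclei of a library summed. Points are libraries and black bars are the mean and SD of 3; the highest library is 1.07 (Clock) to 1.42 (Per1) times the lowest.

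The range over the 6 libraries had a median of 0.24 on the log2 scale over the 10 genes, beside 0.39 over all 20207 genes tested. The scatter within groups, set against that from counting alone (a chi-square of the UMIs divided by its degrees of freedom, 1 where counting is the only source), was 18.7 for Per1, 6.24 for Per2, 6.22 for Arntl, 4.27 for Dbp, 2.82 for Nr1d1 and 2.26 for Clock. For the other 4 genes it lay between 1.08 and 1.66, close to counting error. Vehicle 1 had the lowest Arntl, Clock, Cry1 and Nr1d2 and the highest Per1 and Nr1d1. It was also the library with the fewest kept nuclei, 7579, and the lowest share of barcodes kept, 87.7%. In it 6.19% of barcodes lay over the mitochondrial limit, the most of the 6 libraries. Astrocytes were 14.7% of its kept nuclei, the lowest share, and oligodendrocytes 20.4%, the highest. The part of these differences in its levels was not tested.

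A ratio of Dbp to Arntl within a library does not depend on its depth, and this measure was added after the levels had been seen. In whole libraries it ran from 0.228 Dbp UMIs per Arntl UMI in LPA 2 (95% counting interval 0.211 to 0.247) to 0.314 in vehicle 1 (0.289 to 0.341), a 1.38-fold range. In between lay LPA 1 at 0.288, vehicle 2 at 0.269, LPA 3 at 0.267 and vehicle 3 at 0.260. The treatments overlapped, and the intervals of the lowest and the highest library did not.

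The same 2 libraries marked the ends in astrocytes, where the ratio ran from 0.247 in LPA 2 to 0.386 in vehicle 1, a 1.56-fold range. In neurons it ran from 0.247 in LPA 3 to 0.349 in vehicle 1, and in oligodendrocytes from 0.156 in LPA 2 to 0.242 in vehicle 2. Vehicle 1 was the highest library in 5 of the 10 cell types and LPA 2 the lowest in 4. Cell types of 1 library share its brain and its preparation, so these counts are a description. Whether the 6 brains were collected at different hours cannot be told apart from other differences between animals in these data.

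**Figure D2:**
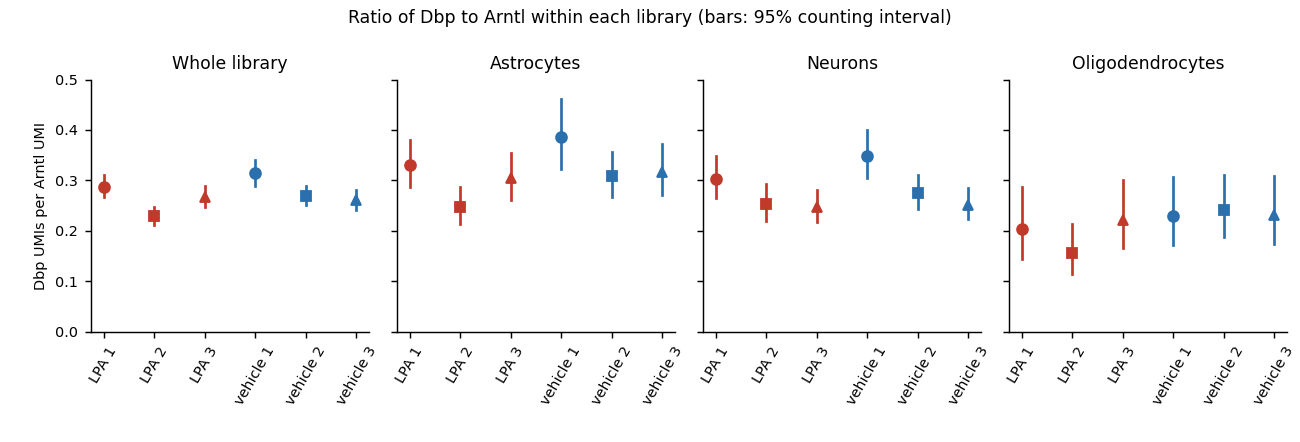
Dbp UMIs per Arntl UMI (vertical axis) in each library, in whole libraries and in the 3 cell types with most nuclei, with 95% counting intervals as bars. Vehicle 1 is highest in whole libraries (0.314), astrocytes and neurons, and LPA 2 is lowest in whole libraries (0.228), astrocytes and oligodendrocytes.

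Whether the clock genes varied together from brain to brain was described by correlations. After centring each cell type and treatment on its mean, the 28 pairs among the 8 genes that passed the filter in every type had Pearson correlations of log2 CPM from -0.38 (Clock and Per1) to 0.38 (Clock and Cry1), with a median of -0.043 over 60 points, 6 libraries in 10 types. Dbp and Arntl had an r of -0.25 and Dbp and Per2 an r of 0.37. Points of a library share its brain and depth, and low correlations in sparse counts are no finding. The genes most like each clock gene by the same measure, the first 3 places among 6790 other genes, were no clock genes. They were picked for the highest r among that many genes and were not tested, so they are no finding either. For Per1 they were Dnmt3a (r = 0.65), Banp (0.62) and Rab1a (0.61), for Per2 Alg9 (0.64), Cep63 (0.64) and Igf1r (0.60), and for Arntl Zfp30 (0.64), Sppl2a (0.61) and Gmpr (0.60). For Clock they included Ftsj1 (0.68) and Ctcf (0.63), and for Cry1 they were Rbm15 (0.64), Pold3 (0.64) and Lrrc8a (0.62). For Cry2 they were Flii (0.63), Iqsec1 (0.58) and Get4 (0.58), for Nr1d2 Txn2 (0.62), Nipbl (0.57) and Ndst2 (0.55), and for Dbp Wdr78 (0.63), Arl8b (0.61) and Dgkz (0.59).

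Spans between cell types, 1.71-fold (Clock) to 14.2-fold (Per2) in the mean of 6 libraries, were wider than the spans between whole libraries given above. Within a type the libraries lay further apart than in whole libraries. The median log2 range over the clock genes ran from 0.30 in neurons to 0.85 in meningeal cells, beside 0.24 in whole libraries. The types were astrocytes (10321 nuclei), oligodendrocytes (10022), oligodendrocyte precursor cells (OPCs, 3178), neurons (14274), ependymal cells (1239), choroid plexus epithelium (950), microglia (1884), endothelial cells (1780), mural cells (1249) and meningeal cells (4081). Types rest on clustering of the same nuclei, so the order of levels is a description without a test. Over neighbouring types in that order, ranges of the 6 libraries mostly overlapped, with 2 clear gaps among 9 for Arntl, Cry2 and Nr1d2, 1 for Per2, Nr1d1 and Dbp, and 0 for Per1, Per3, Clock and Cry1.

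Astrocytes held the highest levels of Arntl, Per1, Cry2, Nr1d1 and Dbp. Arntl averaged 127 ± 2.96 CPM in astrocytes (SD, n = 6 libraries), above every library of the next type, meningeal cells at 86.02 ± 4.24 CPM. It was lowest in oligodendrocytes at 28.5 ± 1.56 CPM, below every library of OPCs. Nr1d1 averaged 38.3 ± 4.14 CPM in astrocytes, clear of ependymal cells at 14.2 ± 4.75 CPM, and 3.43 ± 0.592 CPM in oligodendrocytes, an 11.2-fold span. Dbp averaged 40.04 ± 5.33 CPM in astrocytes and 6.07 ± 0.777 CPM in oligodendrocytes. Astrocytes were thus highest for Arntl, Nr1d1 and Dbp, but the order of the other types differed between these genes. Meningeal cells, next for Arntl, averaged 6.68 CPM for Nr1d1 and 15.2 CPM for Dbp, at places 8 and 7. A link between the level of Arntl and those of its targets was not tested.

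Cry2 was high in astrocytes at 137 ± 7.94 CPM and in ependymal cells at 130 ± 13.3 CPM, whose ranges overlapped, and clear of both lay neurons at 64.7 ± 3.36 CPM. It was lowest in microglia at 30.6 ± 6.23 CPM. Per1 ran from 70.6 ± 9.60 CPM in astrocytes to 19.4 ± 5.63 CPM in OPCs with no clear gap between neighbours. Cry1 spanned only 2.03-fold, from 30.2 CPM in mural cells to 14.9 CPM in oligodendrocytes, and Clock 1.71-fold, from 179 CPM in choroid plexus to 105 CPM in astrocytes. Clock had the flattest profile over the types, and its lowest type was the one with the highest Arntl.

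Mural cells, the pericytes and smooth muscle cells of vessels, held the highest Nr1d2 at 117 ± 12.8 CPM, clear of meningeal cells at 84.2 ± 10.7 CPM. They also held the highest mean of Per2 at 76.3 ± 17.3 CPM, beside astrocytes at 73.1 ± 6.34 CPM with overlapping ranges. Per2 had the widest span of the 10 genes, 14.2-fold, down to 5.36 ± 0.974 CPM in oligodendrocytes, which lay below every library of microglia at 19.3 ± 11.4 CPM. Per3 was highest in meningeal cells at 8.20 CPM and lowest in oligodendrocytes at 1.51 CPM. Oligodendrocytes were the lowest type for 7 of the 10 genes, the exceptions being Clock, Cry2 and Per1. Of the values by gene, type and library, 4 were 0 UMIs, which allow up to 7.22 CPM for Per3 in ependymal cells of vehicle 2, 6.32 and 24.8 CPM for Per3 in microglia of vehicle 2 and 3, and 24.8 CPM for Nr1d1 in microglia of vehicle 3, for counting error alone.

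**Figure D3:**
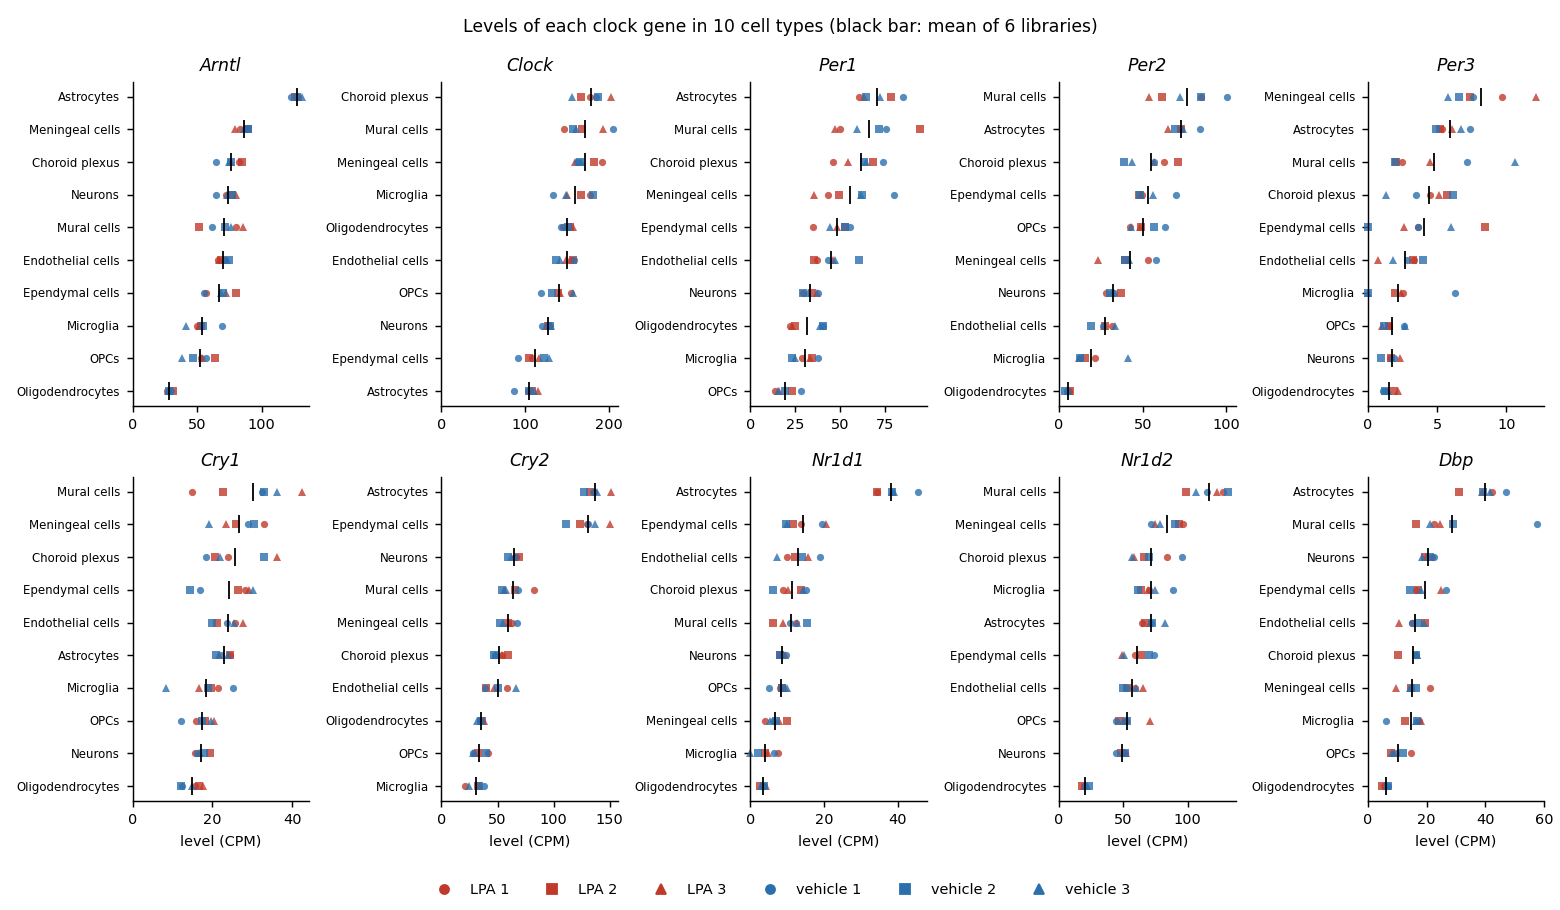
Level of each clock gene (CPM, horizontal axis) in 10 cell types, ordered by the mean of the 6 libraries within each gene. Points are libraries, black bars the mean of 6; oligodendrocytes are the lowest type in 7 panels and astrocytes the highest in 5.

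LPA was then compared with vehicle by edgeR's quasi-likelihood test on UMIs summed over each library, with Benjamini-Hochberg adjustment over all genes tested; a call needed a log2 fold-change of 0.25 or more in either direction beside an adjusted p under 0.05. In whole libraries 0 of the 10 clock genes were called, where 5.62% of all 20207 genes were, and 0 were called by DESeq2. At an unadjusted p under 0.05 there were 2, Per1 (log2 fold-change -0.22, adjusted p = 0.195 by edgeR) and Cry2 (0.12, adjusted p = 0.155). The others lay between -0.02 and 0.15, with Cry1 at 0.12 (adjusted p = 0.316). The median over the 10 genes was 0.05 beside -0.01 over all genes. For Arntl the 95% interval of the log2 fold-change was -0.06 to 0.21 and for Dbp -0.21 to 0.16.

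In the 10 cell types, 92 of the 100 combinations of gene and type passed the filter on low counts. The 8 that did not were Per3 in choroid plexus, endothelial cells, ependymal cells, microglia, mural cells and OPCs, and Nr1d1 in microglia and mural cells. Of the 92, 2 were called, and both were Per1, lower with LPA in oligodendrocytes and in meningeal cells. Of the other 90, 2 had an unadjusted p under 0.05, Cry1 in oligodendrocytes (log2 fold-change 0.35, adjusted p = 0.0946 by edgeR's quasi-likelihood test) and Per2 in choroid plexus (0.42, adjusted p = 0.829).

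Oligodendrocytes were named here by markers of newly formed and mature cells. Their cluster 7 (2056 of 10022 nuclei) scored 0.63 for these markers and 0.50 for those of OPCs, so cells close to precursors are included. In oligodendrocytes, Per1 stood at 22.4, 24.8 and 23.3 CPM in LPA libraries 1 to 3. It stood at 40.5, 40.6 and 38.9 CPM in vehicle libraries 1 to 3. The groups lay far apart, with means of 23.5 ± 1.23 CPM and 40.003 ± 0.942 CPM (SD, n = 3 each). Per1 fell by 0.76 on the log2 scale (SE 0.083, 95% interval -0.94 to -0.59), with an adjusted p of 3.13e-05 by edgeR's quasi-likelihood test. It was the only 1 of 10 clock genes called there, where 5.06% of 14459 genes were called, 1.74% as lower. The call held in all 14 alternative settings, between -0.81 and -0.69.

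The other period and cryptochrome genes of oligodendrocytes were not called. Per2 stood at 5.88, 6.502 and 5.83 CPM with LPA and at 4.90, 3.70 and 5.34 CPM with vehicle (log2 fold-change 0.40, adjusted p = 0.288 by edgeR). Cry1 stood at 15.6, 16.8 and 17.6 CPM with LPA and at 12.4, 12.1 and 14.8 CPM with vehicle. Groups did not overlap for 5 of the 10 genes, 2 of them higher with LPA (Per2 and Cry1, against 11.7% of all genes) and 3 lower (Per1, Nr1d2 at -0.19 and Dbp at -0.28, against 10.5%). Arntl was at 0.02 and Clock at 0.04.

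Marker levels in the nuclei named oligodendrocytes also differed between the groups. Their cluster 7 had Neu4, Bcas1 and Enpp6 among its leading genes, and its second-best match by markers was OPCs. It held 303, 458 and 374 of the 1192, 1585 and 1421 oligodendrocytes of LPA libraries 1 to 3. In vehicle libraries 1 to 3 it held 259, 335 and 327 of 1549, 2189 and 2086. The 8 OPC markers summed to 3031 to 3374 CPM with LPA and 2009 to 2179 CPM with vehicle, and 8 of 8 had the higher mean with LPA, 6 without overlap. The 12 oligodendrocyte markers summed to 23540 to 24650 CPM and 26090 to 26720 CPM, and 10 of 12 had the lower mean with LPA. The 10 meningeal markers summed to 24.8 to 35.8 CPM with LPA and 45.9 to 56.8 CPM with vehicle, with 10 of 10 lower, and none of these markers was at 0 in all libraries. Oligodendrocytes were 14.8% to 16.5% of kept nuclei with LPA and 17.8% to 20.4% with vehicle. With the clusters brought to the same mix in every library, Per1 was at -0.69 (adjusted p = 0.00198 by edgeR). Equal numbers per cluster do not even out differences inside a cluster. The part of the shift in makeup in the lower Per1 was not tested beyond this fit and the fits by cluster below.

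The same contrast within each oligodendrocyte cluster was added after the results by type had been seen. In cluster 4, led by Opalin, a gene of myelinating cells, Per1 stood at 37.8, 47.4 and 43.5 CPM with LPA and at 72.8, 60.3 and 62.3 CPM with vehicle (log2 fold-change -0.57, adjusted p = 0.0182 by edgeR, 0.458% of genes called). In cluster 5, led by Anln, a gene of mature myelin, it stood at 17.5, 21.5 and 18.5 CPM and at 36.3, 42.1 and 40.5 CPM (-1.04, adjusted p = 0.00139, 0.608% called). Both clusters thus had the lower Per1 with no overlap. The share of all genes without overlap was not counted within clusters, and over all oligodendrocytes 10.5% lay lower in this way. In cluster 12 (Cemip2, -0.42, adjusted p = 0.79, 0.0723% of genes called) and cluster 7 (Arhgap24, -0.14, adjusted p = 0.94, 0.512% called) it was not called, and in cluster 29 (Ptger1) it was below the filter. The effect was not shown to differ between clusters (adjusted p = 0.447 by edgeR's test of the interaction, 0.759% of 12252 genes called).

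In meningeal cells, the fibroblasts and barrier cells of the brain's coverings, Per1 stood at 43.5, 49.3 and 35.6 CPM with LPA and at 80.0, 62.2 and 61.6 CPM with vehicle. Every vehicle library lay above every LPA library, as for 7.5% of all genes there, with means of 67.9 ± 10.5 CPM and 42.8 ± 6.89 CPM (SD, n = 3 each). Per1 fell by 0.63 on the log2 scale (SE 0.15, 95% interval -0.95 to -0.32), with an adjusted p of 0.0429 by edgeR's quasi-likelihood test, where 1.14% of 12435 genes were called, 0.507% as lower. This call was lost by DESeq2 (adjusted p = 0.0848) and in 4 of the 6 fits with 1 library left out: without LPA 1 (-0.63, adjusted p = 0.113), without LPA 3 (-0.52, 0.217), without vehicle 1 (-0.51, 0.152) and without vehicle 3 (-0.70, 0.0717).

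Meningeal cells were 3.63% to 5.00% of kept nuclei with LPA and 8.87% to 9.81% with vehicle, and the OPC markers in them summed to 572 to 595 CPM and 459 to 521 CPM, with 8 of 8 higher with LPA and 3 without overlap. Of the 12 oligodendrocyte markers in them, 10 were lower with LPA, 4 without overlap. By cluster, Per1 stood at 45.3, 34.9 and 31.7 CPM with LPA and at 82.7, 79.1 and 65.3 CPM with vehicle in cluster 8, led by Aox3 (log2 fold-change -1.02, adjusted p = 0.00615 by edgeR, 2.12% of genes called). It was not called in cluster 16 (Slc47a1, -0.24, adjusted p = 0.857, 0.701% called) or cluster 30 (Ptgds, -0.55, adjusted p = 0.839, 0.108% called). The effect was not shown to differ between these clusters (adjusted p = 0.606, 0.777% of 10299 genes called). The part of the shift in makeup in these values was not tested beyond the fits by cluster and with the same mix of clusters (-0.80, adjusted p = 0.0330 by edgeR).

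Elsewhere Per1 was not called. Its log2 fold-change was -0.11 in astrocytes (95% interval -0.34 to 0.12) and 0.02 in neurons (-0.21 to 0.26), so a fall of the size seen in oligodendrocytes lies outside both intervals. It was -0.19 in OPCs and in ependymal cells, -0.25 in choroid plexus, 0.28 in microglia, -0.33 in endothelial cells and -0.07 in mural cells, with wide intervals. In 1 model over all types with a term for each library, the LPA effect on Per1 differed between cell types (adjusted p = 6.73e-06 by edgeR's quasi-likelihood F test), the only 1 of the 10 genes called where 8.42% of 15392 genes were.

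**Figure D4:**
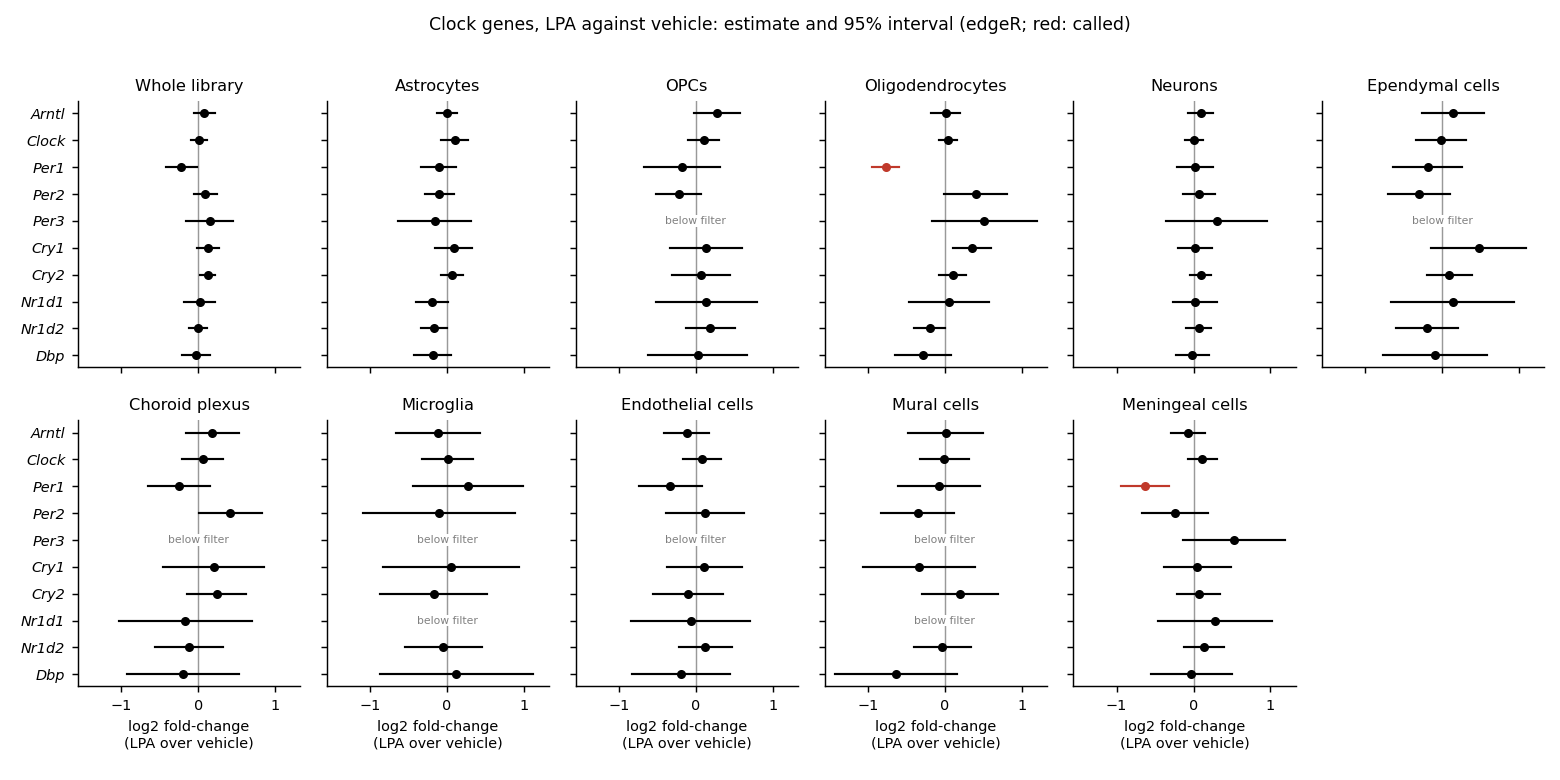
Log2 fold-change of LPA over vehicle (horizontal axis) with its 95% interval for each clock gene in whole libraries and in 10 cell types. Red marks the 2 called values, Per1 at -0.76 in oligodendrocytes and -0.63 in meningeal cells; genes below the filter are named as such.

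In the other 8 types 0 of the members that passed were called, by edgeR or by DESeq2. The share of all genes called was 7.76% in astrocytes, 9.2% in microglia, 3.98% in ependymal cells, 0.207% in mural cells, 0.118% in OPCs, 0.0652% in neurons, 0.0496% in choroid plexus and 0.0% in endothelial cells, where 0 of 11375 genes passed in edgeR, 706 had an unadjusted p under 0.05 and DESeq2 called 5. In astrocytes, the type highest for 5 of the 10 genes, Nr1d1 stood at 34.2, 34.3 and 38.4 CPM with LPA and at 45.5, 38.3 and 38.8 CPM with vehicle (log2 fold-change -0.19, adjusted p = 0.301 by edgeR). Nr1d2 stood at 64.2, 66.4 and 70.5 CPM and at 71.6, 71.9 and 82.6 CPM (-0.17, adjusted p = 0.254), the only 1 of the 10 without overlap there, where 11.9% of all genes lay lower in this way. Dbp was at -0.18 and Arntl at 0.00 in astrocytes. In choroid plexus 3 genes had no overlap, Per2, Cry2 and Arntl, all higher with LPA, against 6.06% of all genes. In endothelial cells Arntl alone had none, lower with LPA by -0.12 on the log2 scale, against 6.07%.

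A list of 19 other clock genes was read beside the 10. Over all genes, the share called by edgeR was 5.62% in whole libraries, 5.06% in oligodendrocytes and 7.76% in astrocytes. It was 3.98% in ependymal cells and 9.2% in microglia, and the counts of the list were not tested against these shares. In whole libraries 1 of 19 was called, Rorb, a ROR receptor that acts on the same element as the REV-ERBs, at 330, 338 and 306 CPM with LPA and 205, 271 and 217 CPM with vehicle (log2 fold-change 0.49, adjusted p = 0.0244 by edgeR). DESeq2 called 2 of 19, Rorb and Bhlhe40, both higher with LPA. The edgeR call of Rorb was lost without LPA 1 (0.49, adjusted p = 0.0872), LPA 2 (0.46, 0.0879) or vehicle 3 (0.46, 0.0775) and with the same mix of cell types (0.22, 0.124). In oligodendrocytes 2 of 16 were called, both ROR receptors and both higher with LPA. Rora stood at 279, 270 and 255 CPM with LPA and at 183, 199 and 189 CPM with vehicle (0.49, adjusted p = 7.08e-05), and was not called with the same mix of clusters (0.24, adjusted p = 0.0893). Rorb was at 0.38 there (adjusted p = 0.0446 by edgeR) and lost its call in 10 of 14 settings, among them without LPA 1 (adjusted p = 0.0787), LPA 2 (0.239), vehicle 1 (0.128) or vehicle 3 (0.130).

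In astrocytes 1 of 18 was called, Usp2, a deubiquitinase whose level follows the clock, at 59.5, 65.3 and 54.4 CPM with LPA and 77.2, 77.5 and 80.9 CPM with vehicle (log2 fold-change -0.39, adjusted p = 0.0055 by edgeR). This call held in every setting run. In ependymal cells 1 of 14 was called, Rorb at 198, 215 and 235 CPM with LPA and 158, 86.6 and 129 CPM with vehicle (0.74, adjusted p = 0.0102), lost without LPA 3 (0.68, adjusted p = 0.0863). In microglia 1 of 12 was called, Hlf, a relative of Dbp, lower by -1.15 (adjusted p = 0.0341) on 6 to 20 UMIs in a library. It was lost in 8 of 13 settings, among them without LPA 1 (adjusted p = 0.0568), LPA 2 (0.0594), LPA 3 (0.108), vehicle 1 (0.167) or vehicle 3 (0.0944). Microglia of the groups differed in makeup: macrophage markers summed to 545 to 734 CPM in them with LPA and 32.0 to 96.4 CPM with vehicle, and at Leiden resolution 2 a microglial cluster led by Gpnmb held 156, 228 and 233 LPA nuclei against 0, 2 and 1 vehicle nuclei. The part of this in the microglial values was not tested. In OPCs, neurons, choroid plexus, endothelial, mural and meningeal cells 0 of the list were called by edgeR or DESeq2, with 0, 1, 1, 1, 1 and 3 at an unadjusted p under 0.05 in edgeR.

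Since Per1 is also a target of glucocorticoids and of activity, a list of 13 glucocorticoid response genes and a list of 12 immediate-early genes were read beside it. Over all genes, 1.74% were called lower in oligodendrocytes and 0.507% in meningeal cells. In either direction, 5.62% were called in whole libraries, 7.76% in astrocytes, 3.98% in ependymal cells and 9.2% in microglia. The glucocorticoid list had 5 of 13 called lower in whole libraries, 8 of 12 in astrocytes and 3 of 12 in oligodendrocytes. It had 3 of 11 called lower in meningeal cells, 1 of 11 in ependymal cells and 1 of 8 in microglia, and 0 called higher in any type. In OPCs, neurons, choroid plexus, endothelial and mural cells 0 were called by edgeR or DESeq2, with 4, 4, 5, 6 and 1 at an unadjusted p under 0.05 in edgeR. DESeq2 called 6 in astrocytes and 0 in ependymal cells. Its median log2 fold-change was -0.51 in astrocytes, -0.17 in oligodendrocytes and -0.29 in meningeal cells, beside medians over all genes of -0.01, -0.01 and 0.00. Of the immediate-early genes, 2 of 12 were called in whole libraries (Atf3 and Fos) and 2 of 10 in astrocytes (Fos and Junb), all higher with LPA. In ependymal cells 1 of 7 was called higher, Dusp1, where DESeq2 called 0. In the other types 0 were called by edgeR or DESeq2, with 0 to 3 at an unadjusted p under 0.05 in edgeR. The 3 were among 4 tested in microglia, where the median log2 fold-change was -0.50 and DESeq2 had 1 at an unadjusted p under 0.05. This median was 0.21 in whole libraries, 0.25 in astrocytes and 0.87 in ependymal cells.

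Fkbp5, a chaperone cofactor of the glucocorticoid receptor, was lower with LPA by -1.37 in astrocytes, -0.46 in oligodendrocytes, -0.81 in meningeal cells and -1.23 in microglia on the log2 scale, all called. The call in oligodendrocytes was lost without LPA 2 (-0.40, adjusted p = 0.121 by edgeR), without vehicle 3 (-0.33, 0.0898) and with the same mix of clusters (-0.41, 0.0930). Tsc22d3 (GILZ), another direct target, was lower by -0.73 in astrocytes, -0.72 in oligodendrocytes and -1.01 in ependymal cells, and was not called in meningeal cells (-0.09). Its call in ependymal cells was lost in 6 of 14 settings, by DESeq2 (adjusted p = 0.147), with the same mix (0.218) and without LPA 1 (0.137), LPA 3 (0.122), vehicle 1 (0.119) or vehicle 2 (0.128). In astrocytes both were thus lower while Per1 was not called. By cluster, Fkbp5 was called lower with Per1 in oligodendrocyte cluster 5 (-0.91, adjusted p = 0.00139 by edgeR) and in meningeal cluster 8 (-1.42, adjusted p = 2.96e-07), and Tsc22d3 in oligodendrocyte clusters 4 (-0.56, adjusted p = 0.00029) and 5 (-0.51, adjusted p = 0.00139). Fkbp5 was also called in meningeal clusters 16 (-0.81) and 30 (-0.61), where Per1 was not, and was not called in oligodendrocyte cluster 4 (-0.50, adjusted p = 0.136), where Per1 was. The part of a glucocorticoid response in the lower Per1 was not tested.

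**Figure D5:**
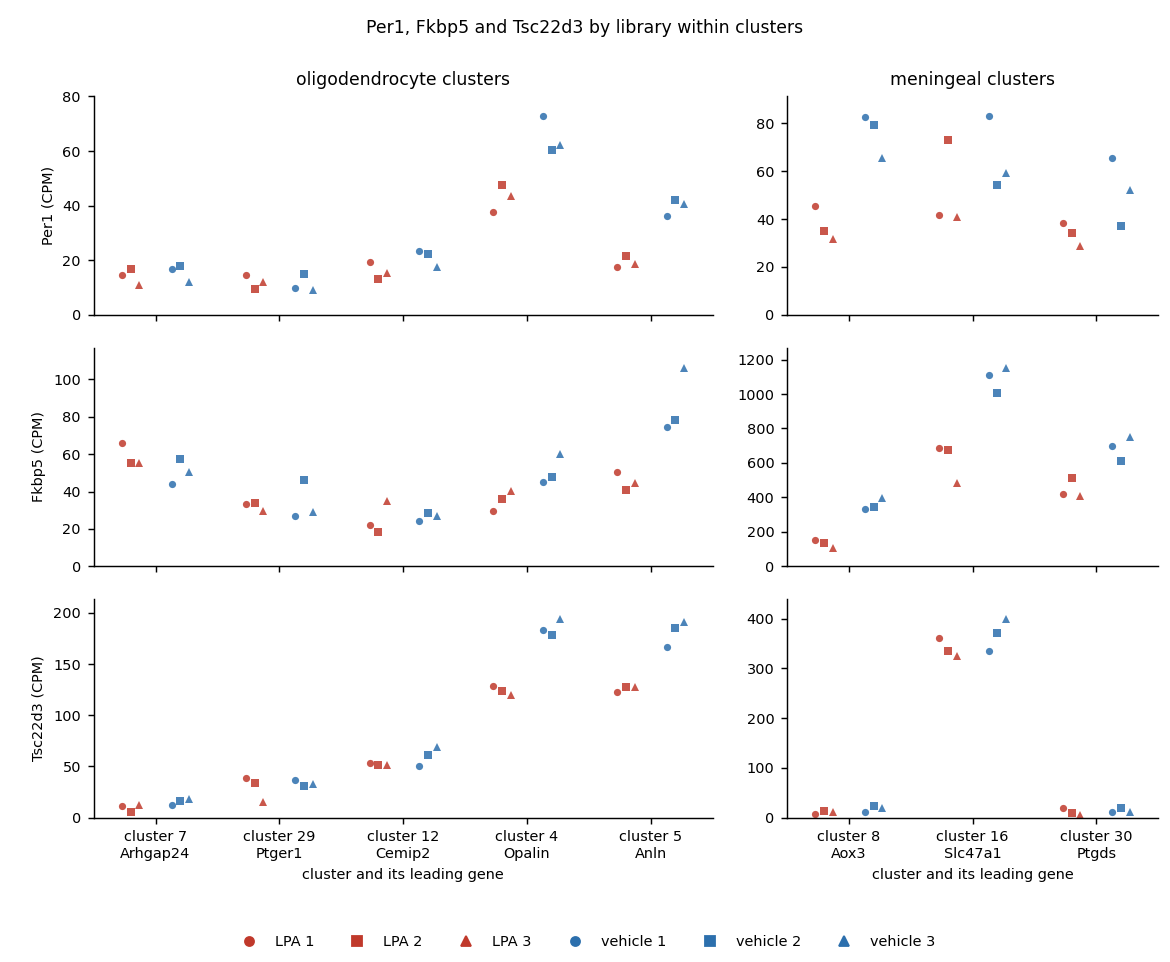
Per1, Fkbp5 and Tsc22d3 (CPM, vertical axes) in each library within the 5 oligodendrocyte and 3 meningeal clusters, each named with its leading gene. Per1 of the LPA libraries lies below that of the vehicle libraries in oligodendrocyte clusters 4 and 5 and in meningeal cluster 8 without overlap. The share of all genes without overlap was not counted within clusters.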

How the data were processed

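The 6 filtered gene-by-barcode matrices were used. Per the labels and the study's methods, the authors sorted NeuN-negative nuclei, prepared 10x Genomics 3′ v3 libraries (10000 nuclei targeted) and ran Cell Ranger 4.0.0 with an mm10 reference that counts intronic reads; the deposited values are raw UMI counts. Kept nuclei had 300 or more genes, mitochondrial UMIs of 1% or less and a UMI total under the upper quartile plus 1.5 interquartile ranges (scanpy 1.11.5). They were clustered (3000 variable genes, 40 components, 30 neighbours, Leiden resolution 1) and named by marker lists. The limits used in naming were chosen with the clusters in view. Scrublet called 12.3% to 15.4% of nuclei as doublets; clusters with a majority of such calls stayed unnamed and other nuclei were kept. Counts were summed per library and type and tested with edgeR 4.0.16 (quasi-likelihood test, TMM, low-count filter, Benjamini-Hochberg over all genes); DESeq2 1.42.0 was an alternative. The fits were tested on simulated data. Replicates differed by more than counting noise (chi-square 13.3 to 26.8 per degree of freedom), so none was counted as a duplicate.

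The clock genes, the lists and the tests were chosen with earlier results of these data known. Named genes were every clock gene, other clock genes called in any type, the 3 genes most like each clock gene (1 of them is not reported here), and Fkbp5 and Tsc22d3. Bhlhe40 and the immediate-early genes are named by a choice made after their values were seen. Intervals of ratios and zero counts cover counting error only.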

Additional observations from a re-analysis of the deposited data

Results flagged for a closer look

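The effect of LPA on Per1 differed between the 10 cell types by a test of the difference itself (adjusted p = 6.73e-06, edgeR's quasi-likelihood F test of the type-by-treatment terms with a term for each library, Benjamini-Hochberg over 15392 genes). Per1 was lower with LPA by -0.76 on the log2 scale in oligodendrocytes (lower in 3 of 3 LPA libraries than in any vehicle library) and by -0.63 in meningeal cells (3 of 3), and was at -0.11 in astrocytes and 0.02 in neurons with overlapping groups. The other 9 clock genes had no such difference at this threshold, and 8.42% of all genes did. Groups of 3 libraries are too small for the search for single outlying samples.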

How the results depend on the processing

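In whole libraries 0 clock genes were called in any of the 13 alternatives, with Per1 between -0.31 and -0.14 on the log2 scale. By cell type, 2 values were called with edgeR, 1 with DESeq2, 1 to 2 with 1 library left out and 3 without the mitochondrial filter, where Per1 was also lower in macrophages (-0.59), a type not named in the clustering used above; 47.1% of the nuclei of its single cluster were doublet calls. The value lost each time was Per1 in meningeal cells (-0.82 to -0.51, lost in 5 of 14 settings), and Per1 in oligodendrocytes was never lost (adjusted p 3.92e-13 to 0.00198). Without the mitochondrial filter, macrophages held 448, 499 and 425 nuclei in LPA libraries 1 to 3 and 119, 354 and 162 in vehicle libraries. Microglia there held 254, 336 and 213 LPA nuclei, against 391, 539 and 424 in the clustering used above. Vehicle microglia held 115, 323 and 97 nuclei against 112, 322 and 96. The part of this shift in the macrophage value was not tested. The type-by-treatment test called 1 clock gene, and 1 to 2 with 1 library left out, Per2 being the other without LPA 1 (adjusted p = 0.0377). Of 100 uncalled values, 49 changed sign in at least 1 alternative. The median correlation among clock genes lay between -0.064 and 0.0025 with 1 library left out.

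The labels do not say whether replicate numbers pair the samples. Deviations from the group mean were correlated between same-numbered LPA and vehicle libraries at 0.107, 0.244 and -0.033. The 0.244 of LPA 2 and vehicle 2 was the highest of all pairs of an LPA and a vehicle library. Deviations from a mean of 3 libraries depend on each other, so these values cannot show whether the numbers pair. With the replicate block, 0 clock genes were called in whole libraries and 2 by type, as without it, and LPA 1 correlated best with vehicle 3.

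Depth limits the small types most: microglia had 96 to 539 nuclei in a library, and Per3 and Nr1d1 fell below the filter there. Mean levels moved by less than 1 SD without TMM factors or the mitochondrial filter.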
